A study of Mus musculus with 10 samples.

Results

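Oxidative phosphorylation, the making of ATP by the mitochondrial respiratory chain, was followed here through its nuclear genes. A gene was taken as a member when its symbol began with Nduf, Sdh, Uqcr, Cox4, Cox5, Cox6, Cox7, Cox8 or Atp5, and processed pseudogenes marked -ps were left out. The rule used names only and found 96 members among 28227 genes listed over all tables. By prefix, 45 members belonged to complex I (Nduf), 8 to complex II (Sdh), 8 to complex III (Uqcr), 18 to complex IV (the Cox symbols) and 17 to complex V (Atp5). Of these, 11 are assembly factors (Ndufaf and Sdhaf), which help to build complexes I and II without being part of them. The bulk table held 93 members, and the single-cell tables held 89 or 90 each.

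Complex I takes electrons from NADH and complex II takes them from succinate, complex III passes them to cytochrome c, and complex IV hands them to oxygen. Complexes I, III and IV pump protons across the inner mitochondrial membrane, and complex V, the ATP synthase, uses their return flow to make ATP. Complexes I, III, IV and V combine nuclear subunits with subunits encoded on mitochondrial DNA, while complex II is wholly nuclear. A prefix is only an approximate guide: Ndufa4 was later assigned to complex IV, Cox7a2l is an assembly factor for supercomplexes, and Atp5s and Atp5sl are not structural subunits of the ATP synthase.

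The study measured RNA with CEL-Seq2, a method that counts the 3′ ends of transcripts, in mouse trophoblast stem cells (TSCs), which model the trophectoderm of the embryo, all on a C57BL/6J background. Single cells were sorted into 384-well plates, with 1 plate per group, from lines carrying a GFP cassette integrated at random: F4 TSCs in Tx medium, F4 TSCs after 6 days without Fgf4, Tgfb and heparin (differentiated TSCs), newly derived pTSCs in LT21 medium, and pTS1 pTSCs recovered from blastoids, stem-cell models of the blastocyst. Bulk libraries came from TSCs with eGFP knocked in at the Cdx2 coding sequence, 3 of CDX2-high and 3 of CDX2-low cells. Nothing in the labels says that the 3 libraries of a group came from separate cultures, so a p-value here reflects the scatter of these libraries alone, which may be technical.

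After wells with fewer than 2000 UMIs (unique molecular identifiers, 1 per counted transcript) outside mitochondrial DNA were dropped, 257 to 318 wells remained per plate, with 2315931 to 5388767 UMIs per library. No well had the same profile as a well of another library. Levels are given as CPM, counts per 1000000 counts outside mitochondrial DNA. Bulk totals ran from 116659 to 272030 counts, and every CDX2-high library was deeper than every CDX2-low one. The Cdx2-eGFP row read 786 ± 51.3 CPM in CDX2-high and 65.7 ± 33.2 CPM in CDX2-low (SD, n = 3 each), in the direction of the labels. Cdx2 stood at 49.9 CPM in TSCs and 2.46 CPM in differentiated TSCs. Of 8 listed trophoblast markers with at least 10 UMIs over both, 5 were at least 2-fold lower after differentiation, against 18% of all genes. The 2 that stood higher were Krt8 (2224 against 350 CPM) and Krt18 (2373 against 1284 CPM), and the summed list was 1.60-fold higher. Summed fibroblast markers were at 9.09 to 41 CPM and summed primitive endoderm markers at 16.9 to 22.9 CPM in the single-cell libraries, against 11498 to 13450 CPM for the members. Summed epiblast markers stood higher, at 686 CPM in differentiated TSCs, 849 in TSCs, 1102 in pTSCs and 573 in pTSCs from blastoids.

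A larger share of member promoters than of all promoters held the recognition letters of known regulators of respiratory genes. Of the 96 members, 80 were found in the RefSeq promoter table (GRCm38.p6, 250 bases before to 50 after each start, 86 member promoters among 32851). Both strands were searched, and a match is a description of these letters, not a site. The palindromic NRF1 motif, with any base at the sixth place, stood in 25.6% of member promoters and 4.6% of all promoters, and its exact form, a subset of these matches, in 8.14% against 0.971%. The letters CCGGAAG of ETS factors such as GABP stood in 23.3% against 8.86%, and the YY1 letters AAGATGGC in 14% against 2.75%. TATAAA, the TATA box, stood in 10.5% against 13.6%. By gene, YY1 letters were found in 7 of 39 complex I members and 4 of 16 complex V members, and in 0 of 7, 0 of 5 and 0 of 13 members of complexes II, III and IV.

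The 120 bases before the start are shown for 3 members with low bulk levels in CDX2-high cells and for Ndufv2 and Ndufa4, chosen after their values were seen as members that differed in opposite directions on differentiation, with matched motif letters in capitals. Ndufb4 (chr16:37654369-37654488, minus strand) held the NRF1 motif at 2 places, and Atp5h (chr11:115419920-115420039, minus strand) and Ndufb7 (chr8:83566638-83566757, plus strand) held the ETS letters. Ndufv2 (chr17:66101560-66101679, minus strand) and Ndufa4 (chr6:11907451-11907570, minus strand) held none of the 5 motifs in this window.
Ndufb4: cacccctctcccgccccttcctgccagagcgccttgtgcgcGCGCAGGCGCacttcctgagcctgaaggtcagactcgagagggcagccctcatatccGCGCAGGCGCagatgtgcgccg
Atp5h: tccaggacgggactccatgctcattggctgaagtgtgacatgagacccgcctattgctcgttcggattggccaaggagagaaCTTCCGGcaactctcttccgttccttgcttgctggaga
Ndufb7: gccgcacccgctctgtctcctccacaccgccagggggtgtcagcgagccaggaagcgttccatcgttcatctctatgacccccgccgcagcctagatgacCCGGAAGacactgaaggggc
Ndufv2: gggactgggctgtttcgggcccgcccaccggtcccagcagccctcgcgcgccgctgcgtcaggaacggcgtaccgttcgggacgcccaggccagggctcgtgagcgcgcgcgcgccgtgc
Ndufa4: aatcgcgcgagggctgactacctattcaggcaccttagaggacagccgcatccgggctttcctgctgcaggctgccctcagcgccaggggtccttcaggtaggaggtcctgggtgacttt

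Members took about the same share of the transcripts in every single-cell library, but the split by complex differed between the assays. In single cells they made up 1.15% of UMIs in differentiated TSCs, 1.34% in TSCs, 1.29% in pTSCs and 1.27% in pTSCs from blastoids. Complex I gave 44.1% to 48.1% of member UMIs, complex IV 28.5% to 36.3%, complex III 9.89% to 12.8%, complex II 5.42% to 8.31% and complex V only 3.68% to 4.22%. In the bulk libraries complex V gave 33.6% of member counts in CDX2-high and 31.3% in CDX2-low, complex I 28.2% and 29.6%, and complex IV 27.6% and 28.8%. Atp5a1, the α subunit in the head of the ATP synthase, had 150, 195 and 286 counts in the CDX2-high libraries but 29 UMIs in the far deeper TSC plate.

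At the median, the gap between the assays went with the number of transcripts annotated for a gene, but the ranges overlapped widely. Members with 1 annotated transcript (8 genes with at least 10 counts in both) had a median log2 ratio of TSC to CDX2-high CPM of 0.97, those with 2 or 3 transcripts (19 genes) of -0.90, and those with 4 or more (53 genes) of -2.33. The ranges of these 3 classes were -0.93 to 2.25, -5.51 to 2.15 and -7.42 to 2.27. For complex V the median was -5.08 over 15 genes. The cells also differed between the assays, and the source of the gap was not tested. Levels of different members in the single-cell tables therefore carry this uneven gap, and so do shares and sums over a complex. In each library the 10 most counted members gave 53.7% to 57% of member UMIs. Ratios between libraries are given per gene beside the sums. In addition, 19 members have a near-identical copy elsewhere in the annotation (at least 95% identity over at least 200 of the last 400 bases), and 15 of them have a copy counted in the single-cell tables, so their counts may be split and their ratios are uncertain.

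**Figure D1:**
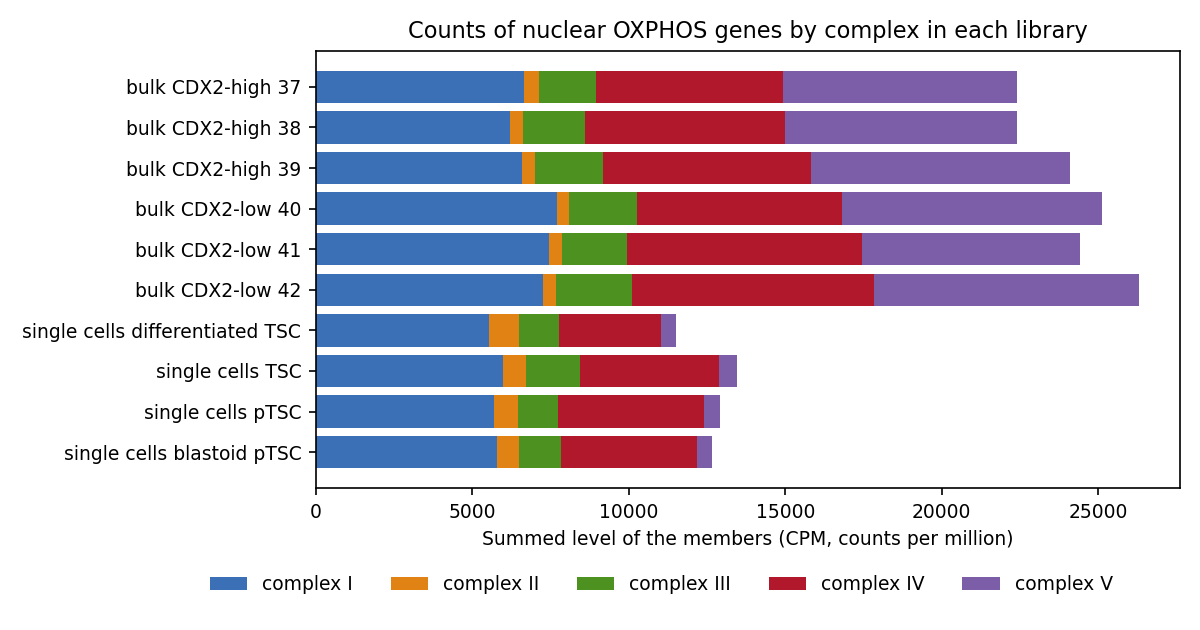
Summed level of the members in CPM (horizontal axis) for each of the 6 bulk and 4 single-cell libraries, divided by complex. Complex V fills 31.3% to 33.6% of the bulk bars on average, and is a narrow end piece of 3.68% to 4.22% in the single-cell bars.

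The comparison of CDX2-high with CDX2-low TSCs asks which genes differ with the level of this trophectoderm transcription factor. Of 93 members in the bulk table, 70 had enough counts to be tested and 1, Atp5h, passed, lower in CDX2-high cells (edgeR quasi-likelihood test, Benjamini-Hochberg adjusted p under 0.05). That is 1.43% of tested members, against 2.79% of all 3006 tested genes lower and 3.09% higher. No member was higher, and at an unadjusted p under 0.05, 2 were higher (2.86%, against 9.98% of all genes) and 9 lower (12.9%, against 9.12%). DESeq2 called the same numbers, 0 higher and 1 lower. In bulk samples a lower level can come from fewer cells with the transcript or from less of it per cell, which cannot be told apart.

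Atp5h, which encodes subunit d of the stalk that holds the ATP synthase head in place, read 121, 175 and 162 CPM in CDX2-high and 326, 295 and 319 CPM in CDX2-low libraries. All CDX2-low libraries lay above all CDX2-high ones. The log2 fold change was -1.02 (SE 0.24, edgeR adjusted p = 0.0110). The call was lost without CDX2-high library 37 (-0.88, edgeR adjusted p = 0.0768) or 39 (-1.05, edgeR adjusted p = 0.0531). Atp5h also has near-identical copies, none with a row in the bulk table.

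Complex I made up 33 of the 70 tested members and 26 of the 53 with a log2 fold change below 0, and none of its members passed the test. Ndufb4, an accessory subunit of the membrane arm, read 184, 148 and 180 CPM against 266, 295 and 296 CPM in CDX2-low, with no overlap (log2 -0.77, SE 0.24, edgeR adjusted p = 0.0578). Ndufb7, a small accessory subunit, read 69.8, 73.9 and 107 CPM against 180, 187 and 111 CPM, so its groups were separated only by a narrow gap (log2 -0.91, SE 0.32, edgeR adjusted p = 0.0963). Ndufa1, Ndufb6 and Ndufb3 had log2 fold changes of -0.60, -0.63 and -0.64, with edgeR adjusted p of 0.169, 0.184 and 0.242, and none of the 3 overlapped between groups. All 10 Ndufb subunits, which build the distal membrane arm, had a log2 fold change below 0, 7 of them without overlap, where 11% of all tested genes had every CDX2-low library above every CDX2-high one. Of the Ndufa subunits 7 of 12 were below 0 and 2 without overlap, and of the Ndufs subunits 5 of 6 and 2. Together the Ndufb genes summed to 1093 ± 74.9 CPM in CDX2-high and 1602 ± 64.8 CPM in CDX2-low (SD, n = 3 each), and the Ndufa genes to 3446 ± 183 and 3560 ± 120 CPM. The Ndufb group was chosen after its values were seen and has no test of its own.

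In the other complexes, 3 members were among the 10 with the smallest p beside Atp5h. Uqcrq, a small subunit of complex III, read 273, 350 and 371 CPM against 437, 518 and 578 CPM without overlap (log2 -0.63, SE 0.22, edgeR adjusted p = 0.0929). Cox6a1, the widely expressed form of a complex IV subunit, read 254, 296 and 213 CPM against 506, 259 and 489 CPM, with CDX2-low library 41 among the CDX2-high values (log2 -0.72, SE 0.25, edgeR adjusted p = 0.0933). Sdhc, a membrane anchor of complex II, was the only member of the 10 with the smallest p that stood higher in CDX2-high, at 184, 206 and 202 CPM against 137, 137 and 104 CPM without overlap (log2 0.65, SE 0.27, edgeR adjusted p = 0.179).

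Across the 70 tested members the differences leaned to one side. The log2 fold change was below 0 for 53 members (75.7%) and above 0 for 17, against 51% of all tested genes below 0 and 49% above, and the median was -0.15 against -0.01 for all genes. All CDX2-low libraries lay above all CDX2-high ones for 18 members (25.7%, against 11% of all genes), and the reverse held for 4 (5.71%, against 11.7%). By complex, the numbers below 0 were 26 of 33 for complex I, 2 of 3 for II, 5 of 8 for III, 11 of 11 for IV and 9 of 15 for V. The summed members read 22419, 22403 and 24108 CPM in CDX2-high and 25107, 24416 and 26293 CPM in CDX2-low libraries, with a narrow gap between the groups. Cytosolic ribosomal protein genes, which are also short and abundant, had the same median of -0.15 with 60 of 78 below 0, and mitochondrial ribosomal protein genes had a median of -0.04 over 42 genes. With no filter on low counts, 52 of 89 members (58.4%) were below 0 with a median of -0.06, against a median of 0.06 for all genes. The share of all genes below 0 was not taken under this setting or the next ones. Thinning each library to the smallest total gave 48 of 67, and leaving out 1 library gave between 46 of 71 (64.8%, without CDX2-high 38) and 55 of 72 (76.4%, without CDX2-high 39). Summed fibroblast and primitive endoderm markers were also lower in every CDX2-high library than in any CDX2-low one. Summed epiblast markers went the other way on average, at 280.5 ± 30.2 CPM in CDX2-high and 217 ± 39.5 CPM in CDX2-low (SD, n = 3 each). The groups overlapped for this sum, and the 2 tested epiblast markers had log2 fold changes above 0. Summed fibroblast markers read 6.35, 3.89 and 11 CPM against 42.9, 21.6 and 51.9 CPM, with 3 of the 6 listed in the table counted in each group, Col3a1 at 0 in all libraries and Pdgfrb giving 3 counts in CDX2-high and 13 in CDX2-low. Summed primitive endoderm markers read 31.7, 15.6 and 33.1 CPM against 60, 50.4 and 51.9 CPM, with 4 of 7 counted in CDX2-high and 2 in CDX2-low, Sox17, Sox7 and Lama1 at 0, and Dab2 giving 14 and 18 counts. Col1a1, Thy1, Pdgfra and Foxa2 each had 1 count in CDX2-high and 0 in CDX2-low, and Col1a2 and Dcn the reverse. The part of such cells in the lean was not tested. No gene of the tricarboxylic acid cycle and pyruvate dehydrogenase list (14 tested), the mitochondrial ribosome (42) or the listed regulators of mitochondrial genes (3) passed, and among 14 glycolysis genes 0 were higher and 2 lower.

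**Figure D2:**
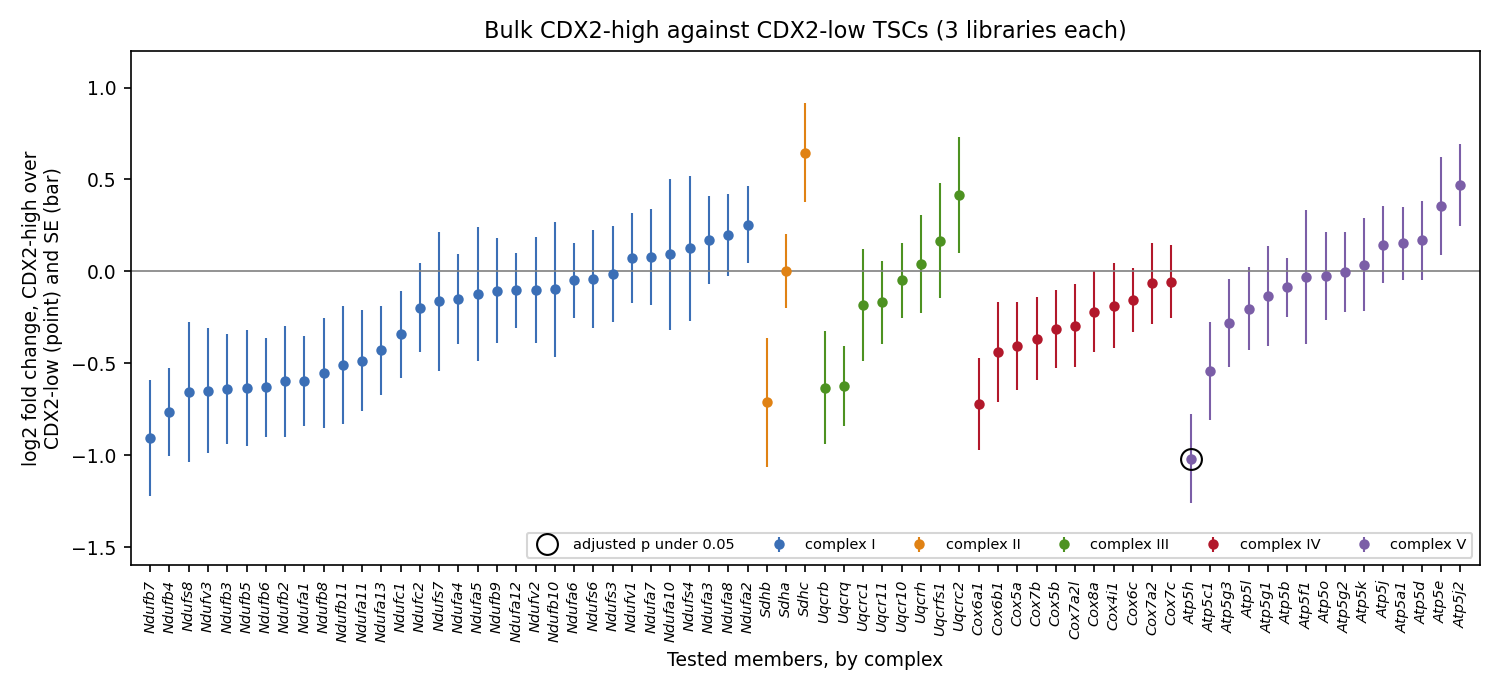
Log2 fold change of CDX2-high over CDX2-low (vertical axis, points, with SE as bars) for 69 of the 70 tested members, ordered by complex and then by value. All 11 points of complex IV lie below 0, and only Atp5h, ringed, at -1.02, passed the test.

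The remaining comparisons set single plates against each other, so they have no replicate and no test. Intervals cover counting error at 95% only, and differences between plates, lines or days cannot be told apart from those between conditions. A gene counts as measured with at least 10 UMIs over both libraries.

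Differentiated TSCs had slightly fewer member transcripts than TSCs, with large shifts of a few genes in both directions. The members summed to 11498 CPM after differentiation and 13450 CPM before, 14.5% lower (log2 -0.23, -0.24 to -0.21). Of 89 measured members, 11 were at least 2-fold lower (12.4%, against 18% of all 12158 genes) and 6 at least 2-fold higher (6.74%, against 17.5%). The median log2 ratio was -0.19 for members and 0.05 for all genes. Among genes with at least 50 UMIs the shares were 10.5% lower and 6.58% higher for 76 members, and 15.8% and 13.6% for 7894 genes. Under a scaling to the median gene, which shifts every ratio of this comparison by 0.12, the summed difference was -0.34.

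By complex the summed level was lower for III, IV and V and higher for II. Complex III read 1280 CPM against 1723 CPM in TSCs (log2 -0.43), complex IV 3275 against 4451 CPM (-0.44), complex V 453 against 568 CPM (-0.33) and complex I 5535 against 5978 CPM (-0.11). Complex II read 956 against 729 CPM (0.39). The median log2 ratios over members were smaller for IV and V, at -0.19, 0.22, -0.34, -0.20 and -0.10 for I to V. Single genes carried much of the summed differences. Complex I without Ndufa4 and its assembly factors was at -0.33, complex IV with Ndufa4 at -0.16 and without Cox8a at -0.18, and complex II without its assembly factors at 0.09. The complex V sums include Atp5s and Atp5sl, which are not subunits of the ATP synthase. These 2 members read 39 and 4.61 CPM in differentiated TSCs against 68.8 and 45.1 CPM in TSCs, and no sum without them was taken. Among the most counted members, log2 ratios were -0.32 for Ndufc2 (complex I, after Ndufa4 the most counted there), -0.40 for Uqcrfs1 (III) and -0.22 for Atp5b (V), the β subunit that makes ATP.

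The lower members included catalytic, structural and accessory parts. Ndufv2, an iron-sulphur subunit of the NADH-oxidizing module of complex I, had 85 UMIs in differentiated TSCs and 636 in TSCs, or 26.1 and 118 CPM, 4.52-fold lower (3.6 to 5.74). It stood at 67.3 CPM in pTSCs and 70 CPM in pTSCs from blastoids, so the differentiated library was the lowest of the 4. Ndufb4, which also stood low in CDX2-high cells, read 16.6 against 62.2 CPM, 3.75-fold lower (2.80 to 5.09), and Ndufb2, of the same membrane arm, 16.6 against 41.2 CPM. Uqcrq read 35.6 against 104 CPM, 2.91-fold lower (2.38 to 3.59). Cox8a, the widely expressed form of a small complex IV subunit and the member with the most UMIs in TSCs, read 623 against 1437 CPM, 2.31-fold lower (2.20 to 2.42), and 1582 and 1379 CPM in the 2 pTSC libraries. Sdhb, the iron-sulphur subunit of complex II, read 55.3 against 127 CPM, 2.30-fold lower (1.94 to 2.72). Atp5sl, not a subunit itself, had 15 against 243 UMIs, 9.78-fold lower (5.82 to 17.8). Cox7a1, the heart and muscle form of a complex IV subunit, had 15 against 72 UMIs.

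The higher members came from complexes I, II, IV and V. Sdhaf4, an assembly factor that handles the flavoprotein Sdha before complex II is complete, had 1060 UMIs in differentiated TSCs and 588 in TSCs, or 326 and 109 CPM, 2.98-fold higher (2.70 to 3.31). The pTSC library had 90.7 CPM and the blastoid library 115 CPM, so 3 libraries lay close together and the differentiated one apart. Its partner Sdha read 260 against 181 CPM (log2 0.52) and the anchors Sdhc and Sdhd 99.3 against 70.1 CPM and 71 against 76.1 CPM, so the 4 subunits of complex II did not share 1 direction. Ndufa4 read 1281 against 642 CPM, 1.99-fold higher (1.91 to 2.09), and 743 and 666 CPM in the 2 pTSC libraries. Cox5b, a zinc-binding subunit of complex IV, read 82 against 34.9 CPM, 2.35-fold higher, yet it was at 103 CPM in pTSCs, so it stood lower after differentiation when pTSCs were taken as the undifferentiated library (log2 -0.33). Cox6c read 79.9 against 42.1 CPM and likewise 89.4 CPM in pTSCs. Ndufa5, an accessory subunit of the peripheral arm, read 45.2 against 18.6 CPM and 5.74 CPM in pTSCs. Ndufs1, the largest core subunit of complex I, read 20 against 10.8 CPM. Atp5l, a membrane subunit of the ATP synthase, had 55 against 19 UMIs (log2 2.26, and 1.56 with its near-identical copies). Cox7a2l had 16 UMIs against 0 in the TSC plate, although each bulk TSC library held 32 to 71 counts of it.

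**Figure D3:**
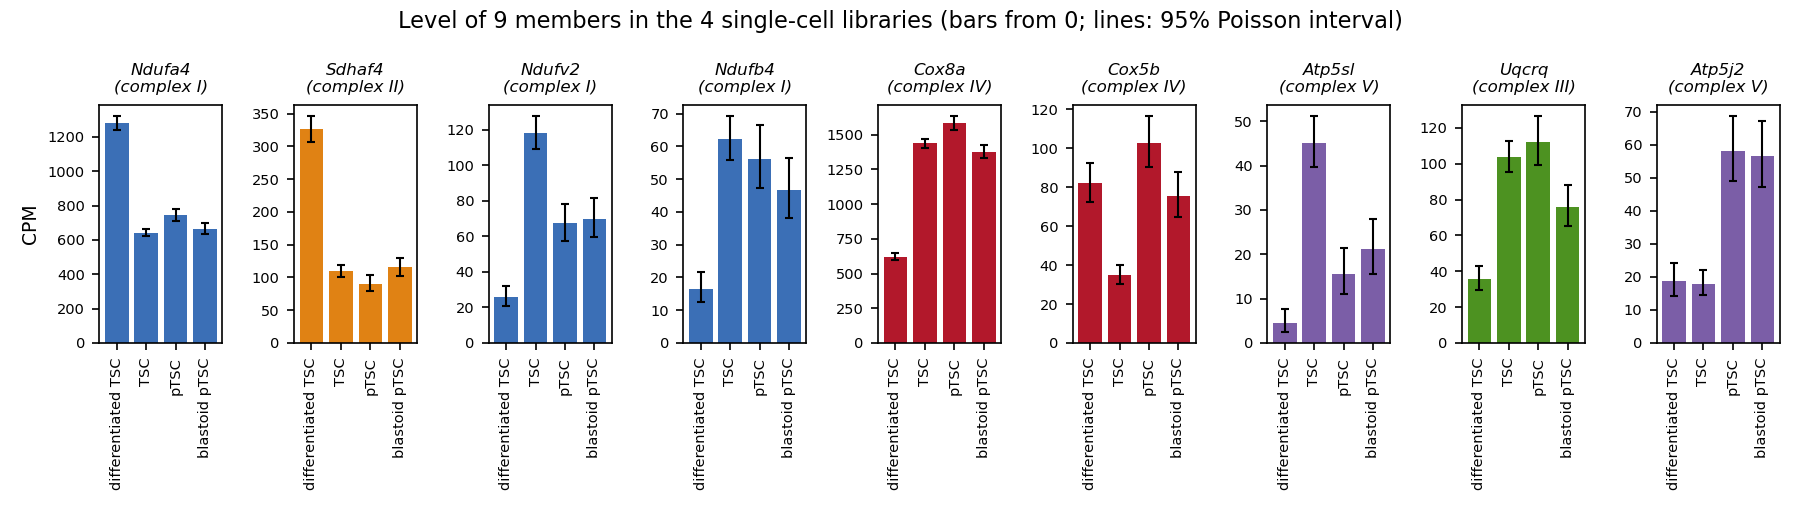
Level in CPM (vertical axes, each from 0) of 9 members in the 4 single-cell libraries, with lines for the 95% Poisson interval of the counts. Ndufa4 and Sdhaf4 are highest, and Ndufv2, Ndufb4, Cox8a, Uqcrq and Atp5sl lowest, in the differentiated library, whereas Cox5b and Atp5j2 set the TSC library apart from the pTSC libraries.

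Near-identical copies changed the picture for a few members. Ndufa12 had 34 UMIs in differentiated TSCs and 20 in TSCs under its own name (log2 1.49), but its copy Gm15920 had 43 and 760, and with the copy added the ratio was -2.61. Atp5g1, a source of the proton-conducting c ring, had 9 and 16 UMIs and its copy Gm10039 had 32 and 387. Atp5o had 12 and 21 UMIs, and its copies 13 and 271. Atp5h had 15 and 25 UMIs and its copies 632 and 722. For these members the row under the gene's own name holds the smaller part of the reads that match its 3′ end, and with the copies added the ratios were -2.57 for Atp5g1, -2.82 for Atp5o and 0.52 for Atp5h, against -0.10, -0.08 and -0.01 without. With all copies added, the sum over members was at -0.24.

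Other mitochondrial and metabolic lists did not all follow the members. The 7 measured transcripts encoded on mitochondrial DNA were all above 0, and their sum was 1.98-fold higher in differentiated TSCs relative to all UMIs. Mitochondrial DNA gave 22.9% of all UMIs there and 13.8% in TSCs. Of 69 mitochondrial ribosomal protein genes 16 were at least 2-fold lower and 2 higher, and of 88 cytosolic ribosomal protein genes 23 and 7. The numbers were 9 and 0 of 17 glycolysis genes, and 2 and 0 of 16 genes of the tricarboxylic acid cycle and pyruvate dehydrogenase. Over all genes 18% were lower and 17.5% higher, and over members 12.4% and 6.74%. The summed log2 ratios of these 4 lists were -0.27, -0.69, -0.74 and 0.04 in this order, against -0.23 for the members. Among 12 measured regulators, 6 were above 0 and 6 below. Tfam, which packages mitochondrial DNA and helps to transcribe it, read 481 against 297 CPM, and Yy1 689 against 405 CPM. Nrf1 read 84.5 against 67 CPM, Gabpa 84.2 against 57.9 CPM and Esrra 25.8 against 43.2 CPM. Ppargc1a, a coactivator of respiratory genes in muscle and brown fat, had 2 UMIs and 1 UMI. Xist, transcribed from the inactive X chromosome, had 14 UMIs in differentiated TSCs and 1515 in TSCs, and the 3 X-linked members Ndufa1, Ndufb11 and Cox7b had log2 ratios of -0.13, -0.40 and -0.59; the part of X dosage in these values was not tested.

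**Figure D4:**
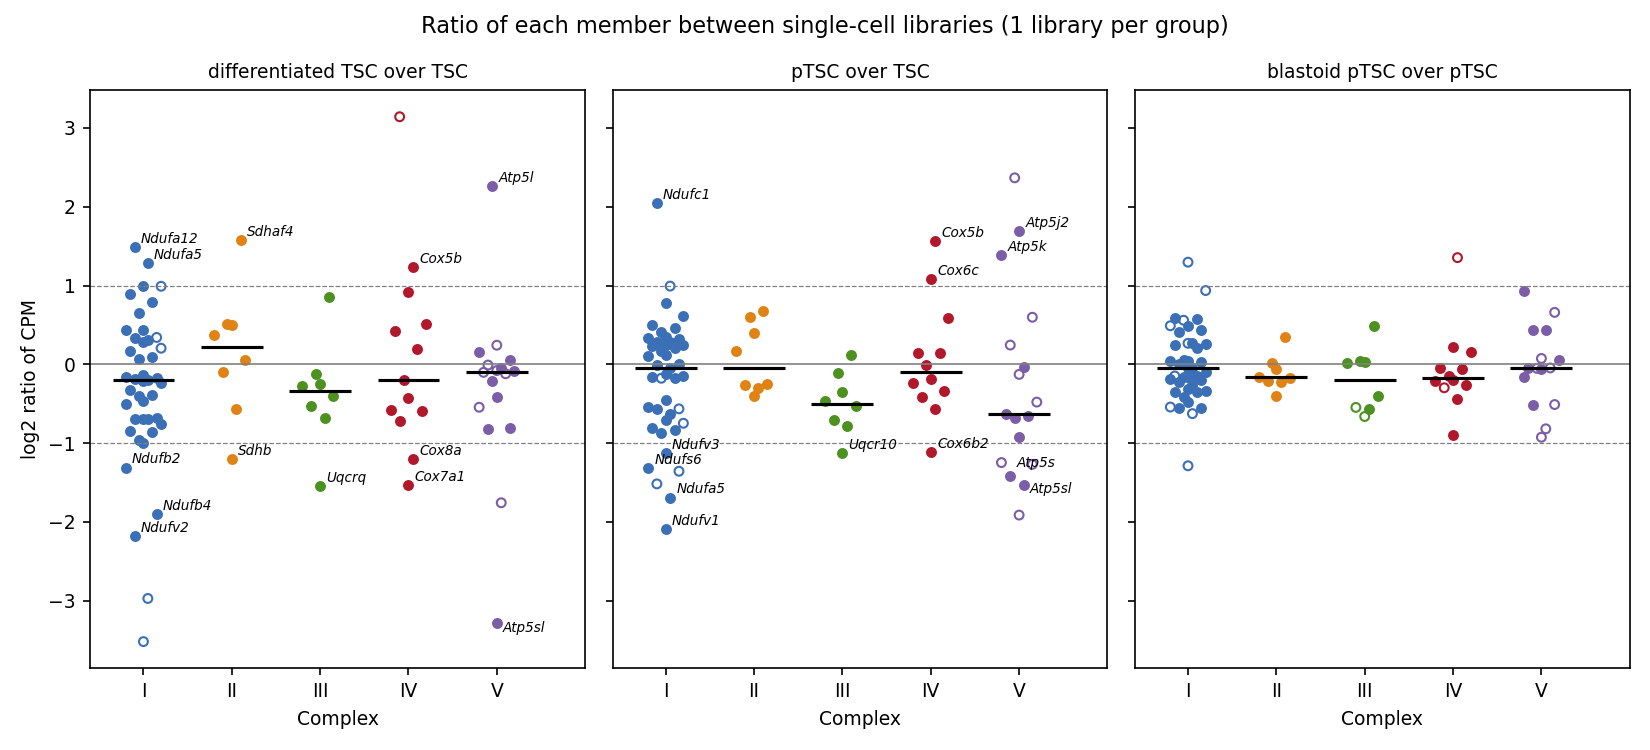
Log2 ratio of CPM (vertical axis) of each measured member for the 3 comparisons of single-cell libraries, by complex, with filled points for at least 50 UMIs over both libraries, open points for fewer, and black bars for medians. Dashed lines mark 2-fold, and all filled points of the blastoid comparison lie between them.

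The pTSC and TSC libraries had nearly the same summed member level but differed by complex and by gene. This comparison shares the TSC library with the last one, and line and medium differ together, so they cannot be told apart. The members summed to 12905 CPM in pTSCs and 13450 CPM in TSCs (log2 -0.06, -0.08 to -0.04), and the sign turned to 0.03 when the libraries were scaled to the median gene. Of 88 measured members, 13 were at least 2-fold lower in pTSCs (14.8%, against 13.9% of all 12070 genes) and 6 higher (6.82%, against 17.6%). With near-identical copies added, 9 of those 13 remained 2-fold lower: Atp5g1 moved from -1.27 to -0.90 and Atp5o from -1.25 to -0.26, while Atp5h turned from -1.91 to 1.13 and Ndufs3 from -1.36 to 1.11. The number higher then was 10. Complex III was lower at 1276 against 1723 CPM (log2 -0.43), with 7 of 8 members below 0, and complex V at 487 against 568 CPM (-0.22), although with near-identical copies added complex V read 910 against 835 CPM and its sign turned (0.12). Complex I was at -0.07, II at 0.07 and IV at 0.07. Without copies, the median log2 ratios over members were -0.05, -0.04, -0.50, -0.10 and -0.63 for I to V. Summed fibroblast markers, 3 of 6 with a UMI in pTSCs, stood at 41 CPM there and 9.09 CPM in TSCs. Of the 2 measured markers, 1 was higher in pTSCs (log2 3.19) and 1 lower (-0.86). The part of fibroblasts in these differences was not tested.

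In complex III, Uqcrfs1, the Rieske iron-sulphur protein and the most counted member of that complex, read 613 against 850 CPM, Uqcrc2, a core protein, 170 against 294 CPM, and Uqcr10 16 against 35.1 CPM. Uqcrq was the exception at 112 against 104 CPM. In complex I, the lower members included 4 of the peripheral arm. Ndufs6 read 49.2 against 123 CPM, 2.49-fold lower (2.05 to 3.05), Ndufv3 19.7 against 42.9 CPM, Ndufa5 5.74 against 18.6 CPM and Ndufv1, which binds NADH, 2.05 against 8.72 CPM on 5 and 47 UMIs. Atp5s read 25.8 against 68.8 CPM and Atp5sl 15.6 against 45.1 CPM. Neither is a subunit of the ATP synthase, but both are part of the complex V sum. Cox6b2, the testis form of a complex IV subunit, had 14 and 67 UMIs.

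The higher members in pTSCs were subunits of complexes IV and V and 1 small subunit of complex I. Cox5b read 103 against 34.9 CPM, 2.95-fold higher (2.43 to 3.59), and Cox6c 89.4 against 42.1 CPM, 2.12-fold higher (1.75 to 2.57). Atp5j2, subunit f of the ATP synthase, read 58.3 against 18 CPM, 3.24-fold higher (2.48 to 4.23), and Atp5k, subunit e, 13.5 against 5.20 CPM. Atp5d had 21 against 9 UMIs, 5.16-fold higher (2.26 to 12.8). Ndufc1 had 43 against 23 UMIs, 4.13-fold higher as CPM (2.44 to 7.19). Ndufaf4, Sdhc and Ndufa7 were 1.72-fold, 1.60-fold and 1.52-fold higher. With near-identical copies the log2 ratio of Atp5k was 1.26 in place of 1.38, that of Cox6c 1.14 in place of 1.09 and that of Atp5f1 0.47 in place of -0.48. Of 16 genes of the tricarboxylic acid cycle and pyruvate dehydrogenase, 14 were below 0 in pTSCs, with 3 at least 2-fold lower and 0 higher. Of 17 glycolysis genes 7 were at least 2-fold lower and 2 higher. Over all 12070 genes, 6247 were below 0, and 13.9% were at least 2-fold lower and 17.6% higher.

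Members were close to level between pTSCs from blastoids and cultured pTSCs, a comparison that shares the pTSC library with the one before. The members summed to 12659 CPM in the blastoid library and 12905 CPM in pTSCs (log2 -0.03, -0.05 to -0.0047), and each complex lay within 0.13 on the log2 scale, at 0.03, -0.12, 0.05, -0.10 and -0.06 for I to V. Of 84 measured members, 2 were at least 2-fold higher (2.38%, against 13.4% of all 11343 genes) and 1 lower (1.19%, against 9.42%). Those 3, named because of their values, were Cox6b2 with 34 against 14 UMIs, Ndufs3 with 7 against 3 (2.46-fold higher, 0.561 to 14.7) and Ndufa12 with 7 against 18. Ndufs3 and Ndufa12 have near-identical copies, and with these added their log2 ratios were 0.07 and -0.18. Among the 64 members with at least 50 UMIs 0 crossed 2-fold either way, against 8.45% of 6877 genes higher and 5.99% lower.

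Smaller differences are given for the 8 highest and 8 lowest of the 64 members with at least 50 UMIs. These members were picked by their ratios, and the intervals are not adjusted for that choice. Some intervals may therefore exclude an equal level through counting error alone. Of those that excluded it, the intervals of Cox4i1 and Atp5d came closest to an equal level and rest on few UMIs. Ndufa13, a complex I subunit also known as GRIM-19, read 378 CPM in the blastoid library and 253 CPM in pTSCs, 1.5-fold higher (1.35 to 1.66). Uqcrc2 read 237 against 170 CPM, 1.40-fold higher (1.23 to 1.59), and Atp5d, subunit δ of the ATP synthase, had 38 against 21 UMIs, 1.90-fold higher (1.09 to 3.42). On the lower side, Cox4i1, the widely expressed form of a regulatory complex IV subunit, had 22 against 43 UMIs, 1.86-fold lower (1.09 to 3.26), Uqcrq read 76 against 112 CPM, 1.48-fold lower (1.22 to 1.80), Cox5b 75.6 against 103 CPM, 1.36-fold lower (1.12 to 1.66), and the assembly factor Ndufaf2 54.4 against 80 CPM, 1.47-fold lower (1.17 to 1.85). The intervals of Ndufs1, Ndufv3, Atp5sl, Ndufa7 and Atp5c1 on the higher side, and of Ndufaf3, Atp5k, Ndufb8 and Ndufa3 on the lower side, included no difference. Summed glycolysis genes were 1.59-fold higher in the blastoid library, and the 7 transcripts of mitochondrial DNA 1.13-fold. Of 4 measured epiblast markers 2 were at least 2-fold higher there and 1 lower, against 13.4% and 9.42% of all genes. Summed, they were 1.93-fold lower in the blastoid library, and their part in these values was not tested.

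Muscle, lung and testis forms of subunits were counted rarely or not at all. The heart and muscle form Cox6a2 had 0 or 1 UMI per single-cell library and 0 counts in all 6 bulk libraries. The muscle form Cox7a1 had 15 to 72 UMIs and 0 to 2 bulk counts, and the muscle form Cox8b 0 or 1 UMI. Cox4i2, the lung form, and Cox8c, the testis form, were listed at 0 in all 6 bulk libraries and had no row in the single-cell tables. The testis form Cox6b2 had 14 to 67 UMIs and 1 to 8 bulk counts. Ndufa4l2, a hypoxia-induced relative of Ndufa4, had 19 UMIs in TSCs, 1 to 3 elsewhere and 0 bulk counts. The widely expressed forms were all counted. Cox6a1 had 78 to 279 UMIs and 36 to 76 bulk counts, and Cox7a2 1048 to 2327 and 49 to 129. Cox8a had 2027 to 7743 and 40 to 99, and Cox6b1 1728 to 4722 and 24 to 51. Cox4i1 had 80 to 258 bulk counts but only 22 to 112 UMIs, a range that overlaps those of Cox7a1 and Cox6b2. Capture of the 3′ ends may differ between forms, so no ratio between them is given. The 3 genes of the c ring, Atp5g1, Atp5g2 and Atp5g3, had 16, 28 and 67 UMIs in TSCs, but the near-identical copy of Atp5g1, Gm10039, had 387 there, so no order of the 3 can be read from these rows.

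Within a plate, members were detected in every kept well and varied most between differentiated cells. The median share of a well's UMIs was 1.18% in differentiated TSCs, with quartiles of 0.963% and 1.39%, and 1.34% in TSCs (1.21% and 1.5%), 1.29% in pTSCs (1.16% and 1.45%) and 1.28% in pTSCs from blastoids (1.11% and 1.46%). With each well thinned to 2000 UMIs, the variance of the member count over its mean was 2.69 in differentiated TSCs and 1.78, 1.49 and 1.78 in TSCs, pTSCs and pTSCs from blastoids, where counting error alone gives a value of 1. Spearman's rho between the complex I and complex IV counts of thinned wells was 0.38 in differentiated TSCs (318 wells), 0.22 in TSCs (318 wells), 0.17 in pTSCs (299 wells) and 0.18 in the blastoid library (257 wells). Wells of a plate share 1 library and its preparation, so these values are descriptions. The rho of the member count with the mitochondrial DNA share was between -0.01 and 0.16.

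The gene differences on differentiation were spread over wells. Thinned to 2000 UMIs, Sdhaf4 was seen in 50% of differentiated wells and 18.9% of TSC wells (87.4% and 70.4% before thinning), and Cox8a in 66.4% and 94.3% (95% and 98.7% before thinning). Ndufv2 was seen in 5.35% and 18.6%, and in 22.6% and 72% before thinning. Median depths were 8473 and 15091 UMIs. The plates held no cell type that should lack these genes, so the share that free RNA gives was not measured.

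**Figure D5:**
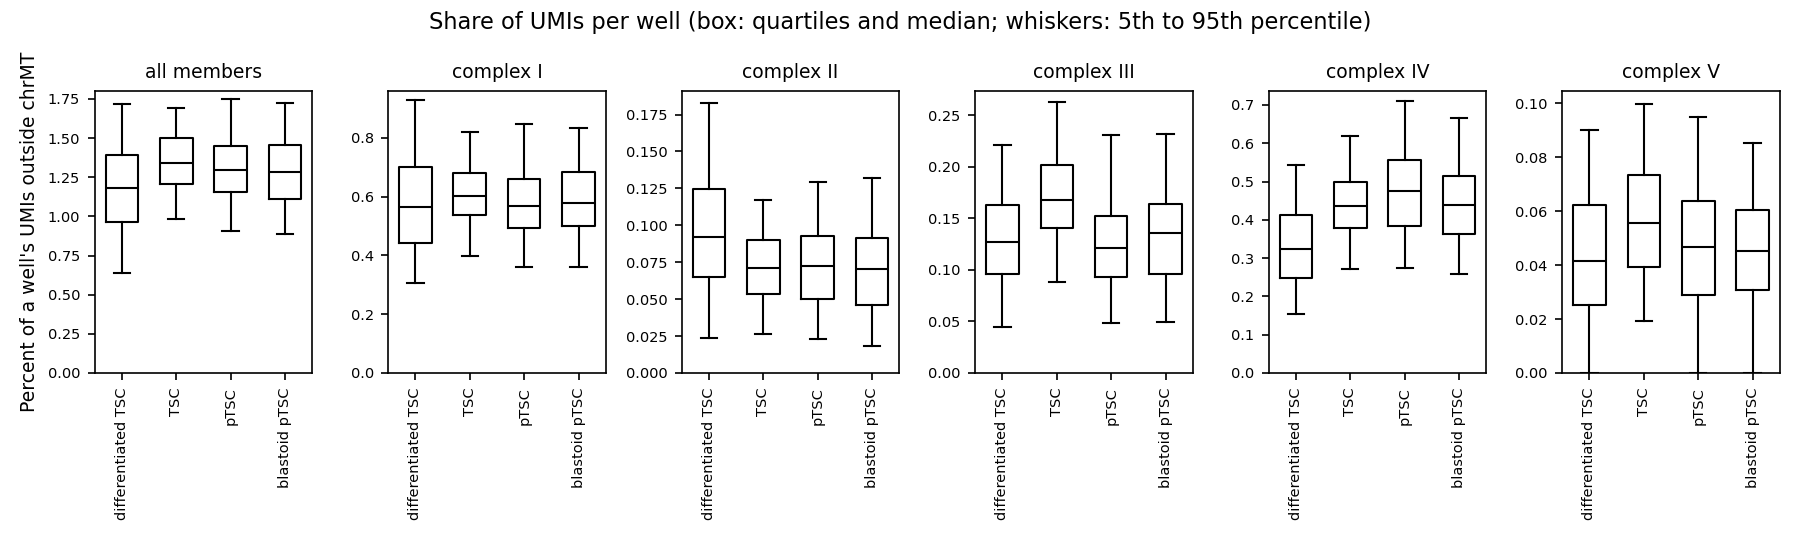
Share of a well's UMIs outside mitochondrial DNA (vertical axes, percent) taken by all members and by each complex in the 4 plates, with boxes for quartiles and median and whiskers for the 5th to 95th percentile. The box of all members is lowest and tallest in differentiated TSCs, at a median of 1.18%, and complex II is highest there.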

How the data were processed

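RNA of 4 plates of single cells and 6 bulk libraries was counted with CEL-Seq2. The authors aligned reads with STAR 2.5.3a, per the submitters' processing notes; the sources used here do not give a genome build, annotation or counting program. The deposited bulk table holds counts per gene, and the deposited single-cell tables hold estimated counts of transcripts per gene and well (UMIs), which were used as UMI counts. Bulk counts were filtered (filterByExpr), scaled (TMM) and tested with the quasi-likelihood functions of edgeR 4.0.16 (R 4.3.3, Benjamini-Hochberg over all tested genes), with DESeq2 1.42.0 as an alternative. Single-cell UMIs were summed over wells with at least 2000 UMIs, and ratios have exact binomial intervals (scipy 1.17.1). Near-identical copies were found with BLAST 2.17.0 on GENCODE M21 transcripts. The bulk test and the binomial intervals were run on simulated counts. For the intervals these were Poisson draws, so that check did not cover spread between wells or plates. Members and lists were chosen with earlier results of these data known. Named were the 10 bulk members with the smallest p, the 8 highest and 8 lowest members with at least 50 UMIs in each single-cell comparison, tissue isoforms, complex II subunits and the most counted member of each complex; others were chosen after their values were seen. Of the 10 bulk members, 1 is not reported here. The alternatives tried are in the closing section. No columns of the files were left unmapped.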

Additional observations from a re-analysis of the deposited data

How the results depend on the processing

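In bulk, the number of members lower in CDX2-high was 1 with no filter, RLE scaling, DESeq2 or thinned counts, and 0 to 2 with 1 library left out: 0 without CDX2-high 37 or 39, and 2 without CDX2-low 41 (Cox6a1 added, log2 -0.97) or 42 (Ndufb7 added, log2 -1.09). The number higher was 0 throughout. No paired analysis was possible because replicate numbers 37 to 42 run on from one group to the other. For differentiated TSCs over TSCs the summed log2 ratio was -0.19 as a mean over wells, -0.34 with median-gene scaling, -0.26 without assembly factors and -0.17 against pTSCs, chosen after seeing the data. Against pTSCs, 17 of 87 measured members were at least 2-fold higher and 16 lower, with 42 above 0 and 45 below, and Cox5b reversed to -0.33. The share over all genes was not computed for this comparison. Adding near copies, also chosen later, reversed Ndufa12 to -2.61. For pTSCs over TSCs the sum was 0.029 with median-gene scaling (reversed) and -0.038 with near copies, and 8 members were lower with at least 50 counts. For blastoid pTSCs the sum was -0.092 with median-gene scaling, 4 members were higher with wells of at least 4000 UMIs, 2 were lower without the 5% of deepest wells, and 0 and 0 crossed with at least 50 counts. With near copies added, 10 members were higher in pTSCs over TSCs, and 1 higher and 0 lower in blastoid pTSCs. Except where a scaling, a gene filter, a left-out library or another reference library sets it by construction, the cause was not tested. For named members in single cells, 198 of 208 values under the alternatives kept their sign and their side of 2-fold. The sign changed for 3, those of Cox5b and Ndufa12 above and Cox6c (-0.16 against pTSCs). The side of 2-fold alone changed for 7: Cox7a1 (-0.97), Sdhb (-0.95), Ndufa12 (0.50) and Ndufs1 (1.02) against pTSCs, and Ndufs1 (1.01) and Atp5d (1.10, and 1.02 with wells of at least 4000 UMIs) without the deepest wells. The small bulk totals and single plates limit all comparisons.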
